A study of Mus musculus with 28 samples.

Results

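Cdkn1c and the genes around it form the imprinted Kcnq1 domain of mouse chromosome 7, and their RNA levels were followed at 2 stages: embryonic stem cells (mESCs), and embryoid bodies (EBs), in which those cells differentiate as aggregates once the cytokine LIF is withdrawn. The 10 genes were taken by name: Cdkn1c, Phlda2, Slc22a18, Kcnq1, Kcnq1ot1, Ascl2, Tssc4, Cd81, Nap1l4 and Osbpl5. Of these, 9 had a row, and exactly 1 row each, in the 2 deposited tables of 37583 genes, while Kcnq1ot1 had none under its name or its identifier and was not analysed here. The series asked which genes depend on Eed, a core subunit of the histone H3 methylating complex PRC2, and on Elongin A, a transcription elongation factor encoded by Tceb3 and written EloA in the labels.

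The CJ7 line was sampled in 4 genotypes, Eed null, EloA K754M, EloA K754R and wild type (WT CJ7), each with 2 mESC and 2 EB libraries. K754M and K754R replace the same lysine of Elongin A by methionine and by arginine. The CCE line was sampled as 3 EloA null and 3 wild type (WT CCE) mESC libraries and as 3 pairs of EB libraries, of which 1 is wild type. Titles and data columns contradict each other for the other CCE EB pairs: in pair A the titles say EloA null and the columns heterozygous, and in pair B the titles say heterozygous and the columns null, so neither was given a genotype. EBs were taken at day 5, and mESCs were at passage 15 to 26, grown on feeder fibroblasts with LIF and inhibitors of MEK and GSK3 and freed of feeders by plating. Total RNA depleted of ribosomal RNA was sequenced. The labels do not say whether libraries of a group came from separate cultures or clones, so p-values measure only the spread between libraries, which may be technical.

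In an imprinted domain, a gene is expressed from the copy inherited from one parent and silenced on the other. In the Kcnq1 domain the long antisense RNA Kcnq1ot1 is made from the paternal copy inside Kcnq1 and silences its neighbours on that chromosome, with PRC2 and other histone and DNA methylation enzymes known to take part, over a wider stretch in the placenta than in the embryo. Cdkn1c encodes p57, a cyclin-dependent kinase inhibitor that restrains growth, and Phlda2 restrains growth of the placenta. RPKM, the unit of the deposited values (reads per kilobase of gene length, relative to all reads of a library), does not separate the parental copies, so a level below is the sum of both.

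The order of the genes on chromosome 7 in the GENCODE M21 annotation is Ascl2, Cd81, Tssc4, Kcnq1, Kcnq1ot1, Cdkn1c, Slc22a18, Phlda2, Nap1l4 and Osbpl5. RefSeq promoter sequence was given for 7 of the 10 genes, and was not given for Cdkn1c, Kcnq1 and Nap1l4. Shown here are the 250 bases before the start of 3 genes called higher in Eed null EBs, 5′ to 3′, to display how unlike their sequences are in CpG, the dinucleotide that mammalian DNA methylation acts on. Each CpG, searched as CG, is in capitals.
Phlda2: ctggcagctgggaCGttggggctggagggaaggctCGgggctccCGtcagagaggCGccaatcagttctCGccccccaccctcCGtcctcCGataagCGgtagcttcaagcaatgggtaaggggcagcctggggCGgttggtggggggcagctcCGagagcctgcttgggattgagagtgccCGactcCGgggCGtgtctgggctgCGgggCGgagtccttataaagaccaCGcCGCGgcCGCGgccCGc
Ascl2: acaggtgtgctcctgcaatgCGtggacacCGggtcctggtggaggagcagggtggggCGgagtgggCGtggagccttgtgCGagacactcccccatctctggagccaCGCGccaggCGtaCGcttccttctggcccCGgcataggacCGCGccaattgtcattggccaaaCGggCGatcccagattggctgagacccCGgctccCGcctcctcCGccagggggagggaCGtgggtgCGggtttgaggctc
Slc22a18: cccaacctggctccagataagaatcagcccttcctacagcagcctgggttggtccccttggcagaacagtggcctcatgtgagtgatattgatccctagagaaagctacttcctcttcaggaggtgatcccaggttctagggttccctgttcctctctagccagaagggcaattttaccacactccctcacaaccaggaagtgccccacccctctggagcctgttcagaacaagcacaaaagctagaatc
The Phlda2 sequence is chr7:143502525-143502774 of GRCm38.p6 on the minus strand and holds 21 CpG. Ascl2 is chr7:142969265-142969514 on the minus strand, with 19, and Slc22a18 is chr7:143473539-143473788 on the plus strand, with 0. Over 32817 RefSeq promoter entries of the same length the median was 6, 16.3% held at least 21 and 7.87% held 0. Tssc4 held 17, Cd81 16, Kcnq1ot1 5, and the 3 entries of Osbpl5 held 14, 1 and 18.

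Library depth, estimated from the size of 1 read in the tables, was, in units of 1000000 reads, 11.1 to 18.2 in CJ7 mESCs, 24.3 to 46.4 in CCE mESCs, 28.7 to 39.9 in CJ7 EBs and 23.6 to 30.9 in CCE EBs. Eed RNA fell in Eed null mESCs (log2 change -2.30) and EBs (-1.68), and Tceb3 fell in EloA null mESCs (-0.68). Stem cell markers (8 genes) summed to 2116 to 3164 RPKM in all 14 mESC libraries. In EBs they summed to 1788 to 2319 in Eed null and to 25.1 to 304 in the other 12 libraries, so that only Eed null EBs had sums that reached into the range of mESCs.

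RPKM is scaled by length, so levels of different genes can be set side by side. Nap1l4, of a family of histone chaperones, and Cd81, a tetraspanin of the cell surface, were abundant in every library, at 75.9 to 114 RPKM and 72.0 to 186 RPKM. Tssc4, which takes part in assembling the spliceosome, ranged from 11.7 to 24.7 RPKM. Kcnq1, a potassium channel subunit, was at most 0.930 RPKM. Slc22a18, a transporter of the organic cation family, was at most 2.34 RPKM, Ascl2, a transcription factor that trophoblast requires, at most 4.90 RPKM, and Osbpl5, an oxysterol-binding protein, at most 4.91 RPKM. Estimated reads behind a value came to 1 to 169 for Slc22a18, 4 to 414 for Ascl2 and 6 to 86 for Kcnq1, so these 3 are the least precise over all libraries. Low values of Cdkn1c and Phlda2 rest on few reads as well. Cdkn1c had 21 and 14 estimated reads in WT CJ7 mESCs, and Phlda2 had at most 14 and 20 in K754R mESCs. The Phlda2 estimates were even numbers in nearly every library, so its real counts may be smaller by a common factor. Levels of mESCs and EBs come from separate tables, and no test was made between the stages themselves.

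**Figure D1:**
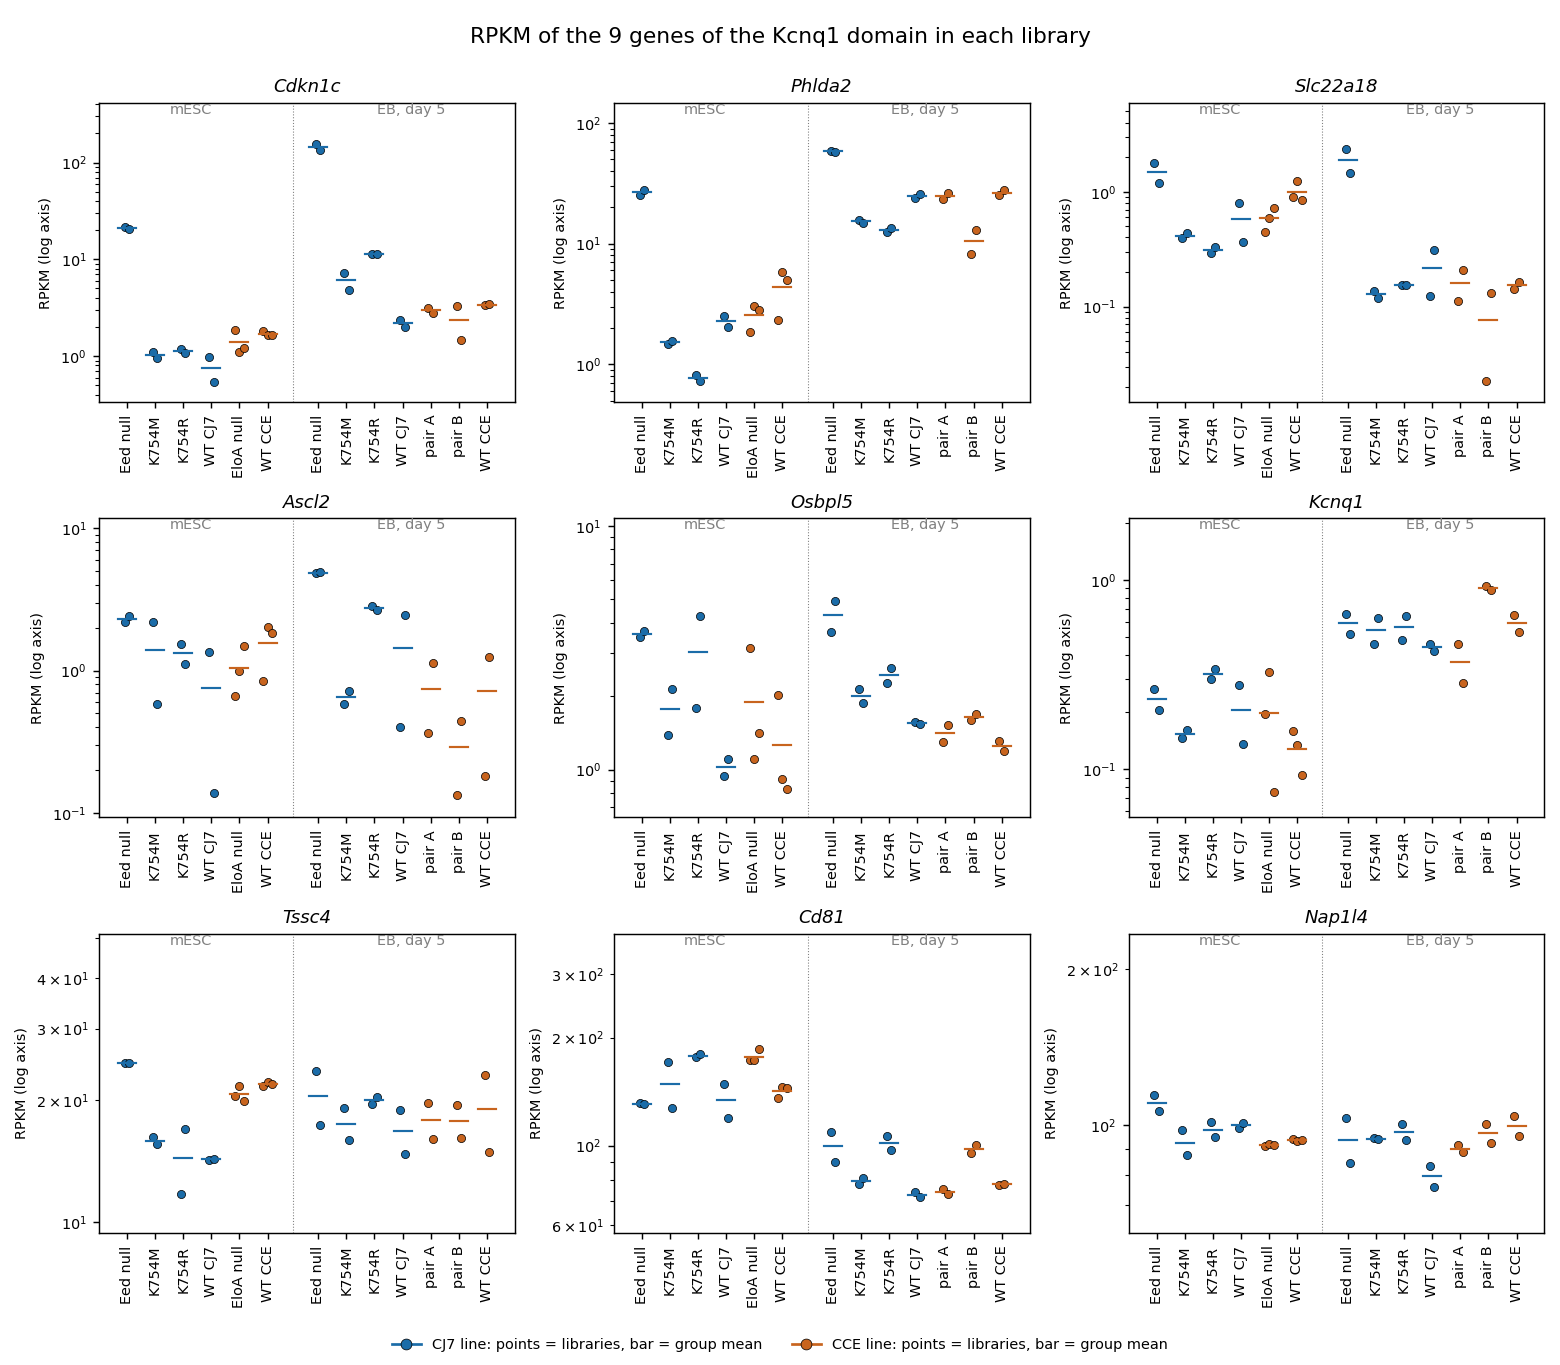
RPKM on a log axis for each of the 9 genes, with 1 point per library, a bar at the group mean, CJ7 groups in blue and CCE groups in orange, mESCs left and day 5 EBs right of the dotted line. Cdkn1c stands apart in both Eed null groups (20.4 to 21.5 RPKM in mESCs and 135 to 155 in EBs). Phlda2 in Eed null stands apart from the other groups of the same stage, though its Eed null mESC values overlap those of WT EBs. Nap1l4 stays between 75.9 and 114 RPKM throughout.

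The order of the Cdkn1c levels over the 13 groups had Eed null EBs on top (mean 145 ± 13.8 RPKM, SD, n = 2), then Eed null mESCs (20.9 ± 0.773), K754R EBs (11.3 ± 0.0537) and K754M EBs (6.06 ± 1.76). Each of these 4 groups kept clear of the next. From WT CCE EBs (3.39 ± 0.0459) through pair A (2.97 ± 0.263), pair B (2.37 ± 1.28) and WT CJ7 EBs (2.18 ± 0.270), the ranges of pair B reached into pair A above it and WT CJ7 below it. The mESC groups other than Eed null lay at the bottom, from WT CCE (1.71 ± 0.0982, n = 3) to WT CJ7 (0.759 ± 0.318, n = 2), and every neighbour below WT CCE overlapped the one above.

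The first comparison asked how the domain differs in Eed null stem cells. Cdkn1c and Phlda2, the growth-restraining genes, rose the most. Cdkn1c had 21.5 and 20.4 RPKM in Eed null mESCs, against 0.984 and 0.533 RPKM in WT CJ7 mESCs. Phlda2 had 25.3 and 27.9 RPKM in Eed null mESCs, against 2.51 and 2.04 RPKM in WT CJ7. Neither gene's groups came near each other. On the scale of log2(RPKM + 0.5), which understates the change of low genes, the rise was 4.11 ± 0.25 for Cdkn1c and 3.29 ± 0.20 for Phlda2 (± SE, n = 2 per group, limma adjusted p = 0.000676 for both). A gene is said to rise or fall where the limma p-value, adjusted over all genes tested, is under 0.05. In all, 3 of 9 genes rose and none fell, beside 8.59% of 21012 genes called in either direction (5.32% higher, 3.27% lower). The share over all genes rests on single libraries, at 0.877% to 12.5% when 1 library was left out. Among all called genes 61.9% were higher, or 46.8% with each library centred on its median, and with centring Cdkn1c and Phlda2 were called and Tssc4 was not.

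Tssc4 also rose, to 24.7 RPKM in both Eed null mESC libraries, against 14.3 in both WT CJ7 libraries (0.77 ± 0.18, limma adjusted p = 0.0491). That call was lost without either Eed null, either WT or either K754M library, where the Tssc4 change was again 0.77 and limma adjusted p was 0.0688 or more. Trpm5, whose exons overlap those of Tssc4 on the other strand, was at most 0.498 RPKM in mESCs.

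Of the remaining 6 genes, Osbpl5 had 3.49 and 3.71 RPKM in Eed null mESCs, against 0.938 and 1.11 RPKM in WT CJ7 mESCs (1.43 ± 0.38, limma adjusted p = 0.0677). Its groups did not overlap, and adjusted p was 0.0420 when all 14 mESC libraries entered the fit. Slc22a18 had 1.78 and 1.18 RPKM in Eed null and 0.799 and 0.366 in WT CJ7 (0.89 ± 0.29, limma adjusted p = 0.114, or 0.0232 with all 14 libraries), groups that did not overlap. Ascl2 had 2.20 and 2.40 RPKM in Eed null, but 1.36 and 0.139 in WT CJ7, whose 2 libraries lay far apart (1.36 ± 0.60, limma adjusted p = 0.212). Kcnq1 (0.06), Cd81 (-0.02) and Nap1l4 (0.14) had log2 changes whose 95% intervals spanned 0.

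Markers of several cell types moved with these rises. Trophoblast markers summed to 266 to 269 RPKM in Eed null mESCs, against 29.0 to 41.9 RPKM in WT CJ7 mESCs, and 5 of 11 tested rose, led by the keratins Krt18 (log2 change 3.80) and Krt8 (3.28) and the transcription factor Cdx2 (3.04). Among the defining trophoblast markers, Prl3d1 was listed at 0 in both groups and Cdx2, Plac1 and Tpbpa at 0 in WT CJ7. Of 11 tested extraembryonic endoderm markers 2 rose, Apoa2 (3.54 ± 0.43) and Amn (2.16 ± 0.39), with sums of 266 to 322 RPKM in Eed null and 241 to 291 RPKM in WT CJ7. Of 6 tested mesoderm markers Hand1, also on the trophoblast list, rose (1.12 ± 0.21), and of 8 stem cell markers Sox2 fell (-0.57 ± 0.11). Under 0.25 RPKM in both WT CJ7 libraries were 7 of 14 trophoblast, 4 of 13 extraembryonic endoderm and 4 of 8 mesoderm markers. In Eed null these were 3, 2 and 2. Some rises may thus have been tested only through the Eed null libraries, and such rises lend the counts no support. Over all genes, 5.32% were higher and 3.27% lower. Of 12 fibroblast markers only Postn was called, and it fell (-2.82 ± 0.59). The median log2 change of these 12 was 0.75, against 0.05 over all genes. They summed to 200 to 297 RPKM in Eed null and 157 to 193 RPKM in WT CJ7. The part of these markers in the rises of Cdkn1c and Phlda2 was not tested. In such bulk samples, more cells of a type and more RNA per cell cannot be told apart.

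In day 5 EBs the question was the same, and 6 of 9 genes rose, with none lower, beside 30.4% of 19300 genes called (19.2% higher, 11.2% lower). Slc22a18, 1 of the 6, entered the test only through its Eed null libraries. Among all called genes 63.1% were higher, or 43.7% with centred libraries. Cdkn1c had 155 and 135 RPKM in Eed null EBs, against 2.37 and 1.99 RPKM in WT CJ7 EBs, the largest change of the domain (5.76 ± 0.19, n = 2 per group, limma adjusted p = 1.53e-05). Phlda2 had 58.8 and 57.5 RPKM in Eed null EBs, against 23.9 and 25.8 RPKM in WT CJ7 EBs (1.21 ± 0.10, limma adjusted p = 0.000238). Both genes were higher in every Eed null library than in any other EB library of the series.

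Slc22a18 lies between Cdkn1c and Phlda2. It had 2.34 and 1.46 RPKM in Eed null EBs, against 0.123 and 0.310 RPKM in WT CJ7 EBs (1.73 ± 0.23, limma adjusted p = 0.00143). Of the 8 CJ7 EB libraries, only the Eed null pair and the second WT library reached 0.25 RPKM. The gene thus passed the filter on low values only through the group where it was high. Slc22a18 is 1 of the 6 of 9 genes counted as rising, and its place there lends that count no support. With no filter adjusted p was 0.0138. The size of its change depends on the pseudocount, at 2.69 with 0.1 and 1.24 with 1. At the end of the domain, Osbpl5 had 3.67 and 4.91 RPKM in Eed null EBs, against 1.56 and 1.54 RPKM in WT CJ7 EBs (1.21 ± 0.19, limma adjusted p = 0.00282). At the other end, Ascl2 had 4.89 and 4.90 RPKM in Eed null EBs, against 0.404 and 2.47 RPKM in WT CJ7 EBs (1.72 ± 0.47, limma adjusted p = 0.0304). The WT libraries of Ascl2 differed more from each other than the second of them did from Eed null on the log scale, and without the first or the second Eed null library adjusted p was 0.0887 or 0.0931. Without the first WT library the Ascl2 change was 0.86 and without the second it was 2.58, both called, so its size rests on which WT library is used.

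Cd81 rose by the least, with 109 and 90.0 RPKM in Eed null EBs and 74.1 and 72.0 RPKM in WT CJ7 EBs (0.44 ± 0.13, limma adjusted p = 0.0341). That call was lost without either WT, either K754M or either K754R library, or without the first Eed null library, at log2 changes of 0.30 to 0.46, and with libraries centred on their median (0.27). Tssc4 (0.27), Nap1l4 (0.23) and Kcnq1 (0.21) had 95% intervals that spanned 0. The genes that rose in Eed null EBs thus stand at both ends and in the middle of the domain, with Tssc4, Kcnq1 and Nap1l4 among them not called.

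The Eed null EBs differed from WT CJ7 EBs in cell type markers as well. Extraembryonic endoderm markers summed to 728 to 846 RPKM in Eed null EBs, against 223 to 268 RPKM in WT CJ7 EBs, with 10 of 13 higher and 2 lower. Mesoderm markers summed to 59.9 to 68.2 RPKM, against 175 to 205 RPKM, with 6 of 8 lower. Trophoblast markers summed to 1245 to 1930 RPKM in Eed null, against 1075 to 1259 RPKM in WT CJ7. Of 12 tested, 6 were higher and 2 lower, beside 19.2% and 11.2% of all genes. Krt7 (3.45 ± 0.19), Esx1 (2.92 ± 0.19) and Gcm1 (2.48 ± 0.16) rose, while Hand1, also on the mesoderm list, fell (-2.62 ± 0.23). Tpbpa and Prl3d1 were listed at 0 in WT CJ7 and not in Eed null. Under 0.25 RPKM in both libraries were 5 of 14 trophoblast markers in WT CJ7 and 1 in Eed null, so some may have been tested only through Eed null. All 8 stem cell markers rose, as did 3 of 11 fibroblast markers. The part of these markers in the rises of the domain was not tested.

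**Figure D2:**
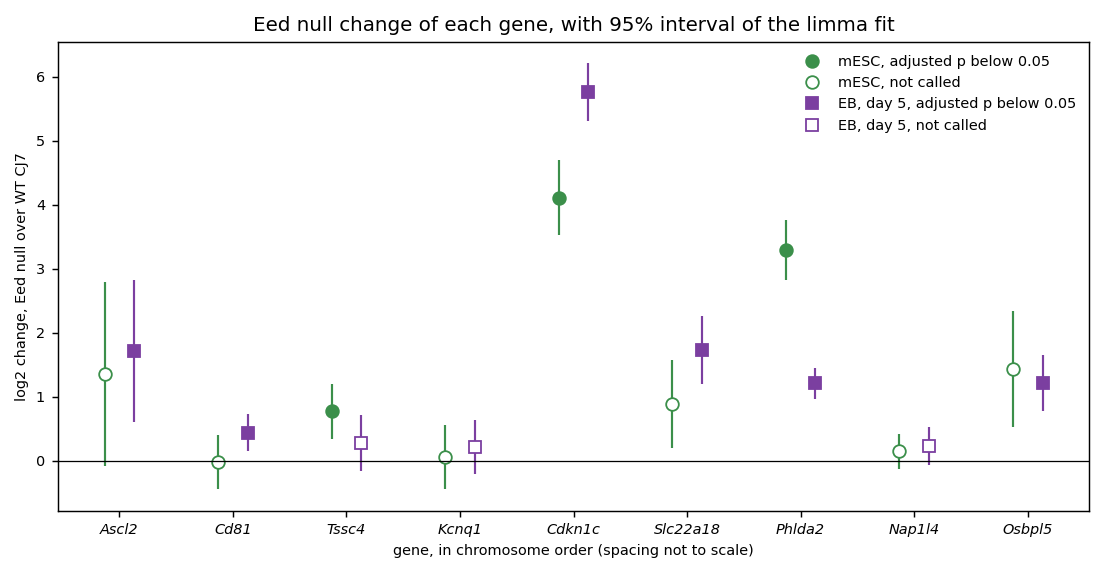
Log2 change, Eed null over WT CJ7, of each gene in chromosome order, circles for mESCs and squares for day 5 EBs, with the 95% interval of the limma fit as a line and filled symbols where adjusted p was under 0.05. Cdkn1c had the largest change at both stages (4.11 and 5.76), and Phlda2 had a larger one in mESCs (3.29) than in EBs (1.21).

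Whether the Eed null change itself differed between the stages was tested as an interaction over the 16 CJ7 libraries. The 2 growth-restraining genes went opposite ways: the change of Cdkn1c was larger in EBs than in mESCs by 1.65 ± 0.30 (limma adjusted p = 0.00369), and that of Phlda2 was smaller, with a difference of -2.08 ± 0.18 (adjusted p = 3.16e-05). For Phlda2 the WT level was 24.9 ± 1.36 RPKM in EBs and 2.28 ± 0.332 RPKM in mESCs (SD, n = 2 each). The other 7 genes were not called, with Slc22a18 at 0.84 ± 0.36 (adjusted p = 0.150) and Osbpl5 at -0.22 ± 0.43 (adjusted p = 0.790), beside 14.7% of 22818 genes (8.09% higher, 6.58% lower). Both calls held without any 1 of the 16 libraries, at 1.39 to 1.91 for Cdkn1c and -2.20 to -1.96 for Phlda2. They also held under the other settings, pseudocounts of 0.1 and 1 among them, at 1.33 to 1.87 and -2.27 to -1.88. The size for Cdkn1c depends on the pseudocount, since its WT CJ7 mESC level, 0.759 RPKM, is low and its mESC change is understated.

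The lysine substitutions of Elongin A were compared with the same WT CJ7 libraries as Eed null, so these comparisons share their controls. In EBs, Cdkn1c was higher and Phlda2 lower in both substitution lines. Cdkn1c had 7.30 and 4.81 RPKM in K754M EBs and 11.2 and 11.3 RPKM in K754R EBs, against 2.37 and 1.99 RPKM in WT CJ7 EBs. Phlda2 had 15.7 and 14.9 RPKM in K754M EBs and 12.6 and 13.5 RPKM in K754R EBs, against 23.9 and 25.8 RPKM in WT CJ7 EBs. For both genes the 3 groups did not overlap, and the lines with a substitution stood on opposite sides of wild type for the 2 genes, while Eed null was above wild type for both.

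In K754R EBs the changes were 2.14 ± 0.19 for Cdkn1c (limma adjusted p = 0.00313) and -0.90 ± 0.10 for Phlda2 (adjusted p = 0.00539), the 2 of 9 genes called, beside 9.68% of genes (4.82% higher, 4.85% lower), or 0.926% to 14.3% when 1 library was left out. Cdkn1c kept its call without any 1 of the 8 CJ7 EB libraries, and Phlda2 lost it without the first K754R library (-0.85, adjusted p = 0.0565). In K754M EBs they were 1.27 ± 0.19 for Cdkn1c (limma adjusted p = 0.0491) and -0.68 ± 0.10 for Phlda2 (adjusted p = 0.04995), again 2 of 9, beside 0.565% (0.181% higher, 0.383% lower), or 0% to 1.14% when 1 library was left out. Both K754M calls lie at the threshold and were lost without any 1 library of K754M, K754R or WT CJ7, at log2 changes of 0.99 to 1.55 for Cdkn1c and -0.73 to -0.62 for Phlda2.

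Methionine against arginine at that lysine gave 0 of 9 genes called by limma in EBs, beside 3.62% of genes (1.9% higher, 1.72% lower), or 0.11% to 5.21% when 1 library was left out, with 3 of 9 at an unadjusted p under 0.05. Over all genes, 3694 of 19300 had an unadjusted p under 0.05. For Cdkn1c, the K754M level was lower than K754R by a log2 change of -0.87 ± 0.19 (95% interval -1.32 to -0.42, limma adjusted p = 0.0562). Ascl2 had 0.587 and 0.723 RPKM in K754M EBs and 2.84 and 2.68 RPKM in K754R EBs (-1.499 ± 0.47, limma adjusted p = 0.139). The replicates of Ascl2 were close in both lines, while the WT CJ7 libraries, which enter the same estimate of spread, had 0.404 and 2.47 RPKM. Without either WT CJ7 library the Ascl2 difference between the lines was called at the same size (adjusted p = 0.0159 and 0.0160). For Phlda2 the difference between the lines was 0.23 (95% interval -0.02 to 0.47).

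Fibroblast markers were also higher in K754R EBs, at 49.8 to 56.1 RPKM summed, against 15.0 to 19.7 RPKM in WT CJ7 EBs. Of 11 tested, 7 were higher, beside 4.82% of all genes, and Lum was listed at 0 in WT CJ7. In WT CJ7 3 of the 12 fibroblast markers stayed under 0.25 RPKM, against 0 in K754R, so some may have been tested only through groups where they are higher. In K754M EBs the sum was 25.0 to 27.1 RPKM and none of 11 was called. Of 12 tested trophoblast markers, Plac1, a gene of the placenta, was the only 1 called in either line, higher in K754M (1.32 ± 0.16) and in K754R (1.57 ± 0.16). Stem cell markers summed to 283 to 304 RPKM in K754M, with 0 of 8 called, and to 25.1 to 39.2 RPKM in K754R, with 4 of 8 lower, against 155 to 199 RPKM in WT CJ7. Mesoderm markers summed to 166 to 184 RPKM in K754M, with 0 of 8 called, and to 118 to 147 RPKM in K754R, against 175 to 205 RPKM in WT CJ7. In K754R 3 of 8 mesoderm markers were lower, Mesp1 (-2.69 ± 0.31), T (-2.54 ± 0.16) and Mixl1 (-0.92 ± 0.19), and Pdgfra was higher (1.08 ± 0.17). Of 13 extraembryonic endoderm markers, Apob was higher in K754M (1.26 ± 0.16) and in K754R (0.82 ± 0.16), where Gata4 was also higher (0.82 ± 0.19) and Afp lower (-1.43 ± 0.34). The part of these markers in the Cdkn1c and Phlda2 values was not tested. Cd81 in K754R EBs (106 and 97.5 RPKM, against 74.1 and 72.0 in WT CJ7; 0.48 ± 0.13) had a limma adjusted p of 0.0561.

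In mESCs limma called no gene of the domain in the substitution lines. Against WT CJ7, K754M gave 0 of 9, beside 0% of all genes, with 0 of 9 and 2103 of all genes at an unadjusted p under 0.05. K754R gave 0 of 9, beside 0.162% (0.0761% higher, 0.0857% lower), with 2 of 9 and 3000 of all 21012 genes at an unadjusted p under 0.05. K754M against K754R gave 0 of 9, beside 0.00952% (0% higher, 0.00952% lower), with 1 of 9 and 2114 of all 21012 genes at an unadjusted p under 0.05. Cdkn1c had 1.11 and 0.949 RPKM in K754M mESCs and 1.19 and 1.08 RPKM in K754R mESCs, against 0.984 and 0.533 RPKM in WT CJ7 mESCs, and K754M overlapped wild type. Phlda2 had 1.47 and 1.56 RPKM in K754M and 0.820 and 0.725 RPKM in K754R, against 2.51 and 2.04 RPKM in WT CJ7. The Phlda2 groups did not overlap and had the same order as in EBs, with changes of -0.46 ± 0.20 in K754M (limma adjusted p = 0.514) and -1.12 ± 0.20 in K754R (adjusted p = 0.0916).

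Osbpl5 varied between libraries of the same mESC group. It had 1.38 and 2.15 RPKM in K754M mESCs and 1.78 and 4.26 RPKM in K754R mESCs. In CCE mESCs it had 3.15, 1.10 and 1.41 RPKM in EloA null and 2.03, 0.911 and 0.834 RPKM in WT CCE. Summed fibroblast markers, which the feeder layer would carry, were 739 RPKM in the second K754R library, 383 in the first EloA null, 353 in the second K754M and 273 in the first WT CCE library, the highest of each group. Outside Eed null, those 4 libraries had the 4 highest Osbpl5 values. The Eed null libraries, at 200 and 297 RPKM of fibroblast markers, had 3.49 and 3.71 RPKM of Osbpl5, while the first K754R library had 196 RPKM of markers and 1.78 RPKM of Osbpl5. In EBs fibroblast markers summed to 19.9 to 20.3 RPKM in Eed null and 15.0 to 19.7 RPKM in WT CJ7, where Osbpl5 rose in Eed null. The part of feeder RNA in the mESC values was not tested.

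**Figure D3:**
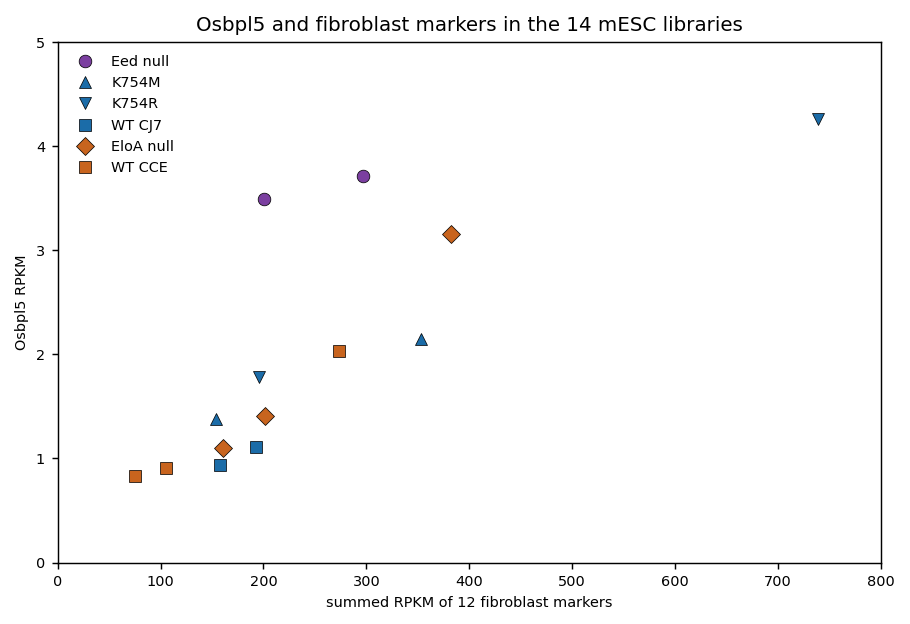
Osbpl5 RPKM against the summed RPKM of 12 fibroblast markers in the 14 mESC libraries, with 1 point per library and 1 symbol per group. Among the 12 libraries that are not Eed null the highest point is the second K754R library (739 and 4.26 RPKM), and the Eed null libraries lie above the other points at 200 to 297 RPKM of markers.

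For the loss of Elongin A in CCE mESCs, 8 genes could be tested, Kcnq1 being too low. Cd81 was called, with 173, 173 and 186 RPKM in EloA null mESCs, against 135, 145 and 144 RPKM in WT CCE mESCs, groups that did not overlap (0.32 ± 0.05, n = 3 per group, limma adjusted p = 0.0266). That was 1 of 8 higher and 0 lower, beside 3.35% of 18460 genes (2.12% higher, 1.23% lower), or 0.869% to 3.52% when 1 library was left out. It was lost without any 1 EloA null library or without WT library 2 or 3, at log2 changes of 0.29 to 0.34 (adjusted p 0.0592 to 0.109). Depth went with genotype here, with EloA null libraries between 24.3 and 34.7 and WT CCE libraries between 42.9 and 46.4, in units of 1000000 reads. Summed fibroblast markers were 383, 160 and 201 RPKM in EloA null and 273, 105 and 74.9 RPKM in WT CCE, with 0 of 12 called. Of 5 tested trophoblast markers Krt18 (-0.98 ± 0.16) and Krt8 (-0.48 ± 0.07) fell. Lama1 of 7 tested extraembryonic endoderm markers (-0.55 ± 0.09) and Klf4 of 8 stem cell markers (-0.40 ± 0.05) fell too. The part of these markers in the Cd81 change was not tested.

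Phlda2 had 1.87, 3.06 and 2.82 RPKM in EloA null mESCs, against 2.34, 5.78 and 5.02 RPKM in WT CCE mESCs. Within each replicate number the EloA null library was the lower one, although the groups overlapped. The change was -0.60 ± 0.32 (limma adjusted p = 0.380), and with the replicate number as a block Phlda2 fell at the same size (limma adjusted p = 0.0459), making 2 of 8 genes called, beside 12.4% of all genes with the block (6.67% higher, 5.72% lower). Cdkn1c had 1.87, 1.10 and 1.21 RPKM in EloA null and 1.82, 1.64 and 1.67 RPKM in WT CCE (-0.24 ± 0.17, limma adjusted p = 0.508).

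In CCE EBs the labels do not settle which pair lost Elongin A, and Slc22a18 was too low to test. Against WT CCE, Tceb3 was not called in pair A (-0.30 ± 0.14, limma adjusted p = 0.776) or pair B (-0.36 ± 0.14, limma adjusted p = 0.297). Between the pairs it differed by 0.06 ± 0.14 (limma adjusted p = 0.869), so Tceb3 RNA does not settle the genotypes either. Of 8 genes, pair A against WT CCE gave 0 called by limma, beside 0% of 17735 genes, with 0 of 8 and 1166 of all genes at an unadjusted p under 0.05. Pair B against WT CCE gave 0 called, beside 0.135% (0.107% higher, 0.0282% lower), with 2 of 8 and 2746 of all genes at an unadjusted p under 0.05. Pair A against pair B gave 0, beside 0.44% (0.0959% higher, 0.344% lower), with 3 of 8 and 3319 of all genes at an unadjusted p under 0.05. The first and second of these comparisons share the WT CCE libraries. Phlda2 had 23.4 and 26.1 RPKM in pair A and 8.14 and 12.96 RPKM in pair B, against 25.5 and 27.6 RPKM in WT CCE EBs. Pair B lay below both other groups, while pair A overlapped WT CCE. The Phlda2 change in pair B was -1.33 ± 0.21 (limma adjusted p = 0.0716), and 0.00459 when all 14 EB libraries entered the fit.

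Cdkn1c had 3.16 and 2.78 RPKM in pair A and 3.27 and 1.47 RPKM in pair B, against 3.35 and 3.42 RPKM in WT CCE EBs, with changes of -0.17 (95% interval -0.93 to 0.60) and -0.51 (-1.27 to 0.25). Pair B thus had lower Phlda2 values and no higher Cdkn1c values than WT CCE; the difference from the CJ7 substitution lines was not tested. Cd81 had 75.8 and 73.1 RPKM in pair A and 95.6 and 100.1 RPKM in pair B, against 77.7 and 78.3 RPKM in WT CCE. Pair B lay above both other groups and was not called (pair B over WT CCE 0.33 ± 0.09, limma adjusted p = 0.168). Kcnq1 had 0.456 and 0.283 RPKM in pair A and 0.930 and 0.880 RPKM in pair B, against 0.654 and 0.531 RPKM in WT CCE. Its 3 groups did not overlap, and pair A over pair B was -0.70 ± 0.20 (limma adjusted p = 0.157). Kcnq1 shares 121 exonic bases with Kcnq1ot1 on the other strand, and the use of strand in counting is not given in the sources used here, so reads of the antisense RNA could enter its value. Fibroblast markers summed to 29.9 to 35.6 RPKM in pair A and 63.5 to 76.3 RPKM in pair B, against 45.0 to 48.5 RPKM in WT CCE. Extraembryonic endoderm markers summed to 307 to 346 RPKM in pair B, with 2 of 12 tested higher, against 176 to 181 RPKM in WT CCE. The part of these markers was not tested.

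**Figure D4:**
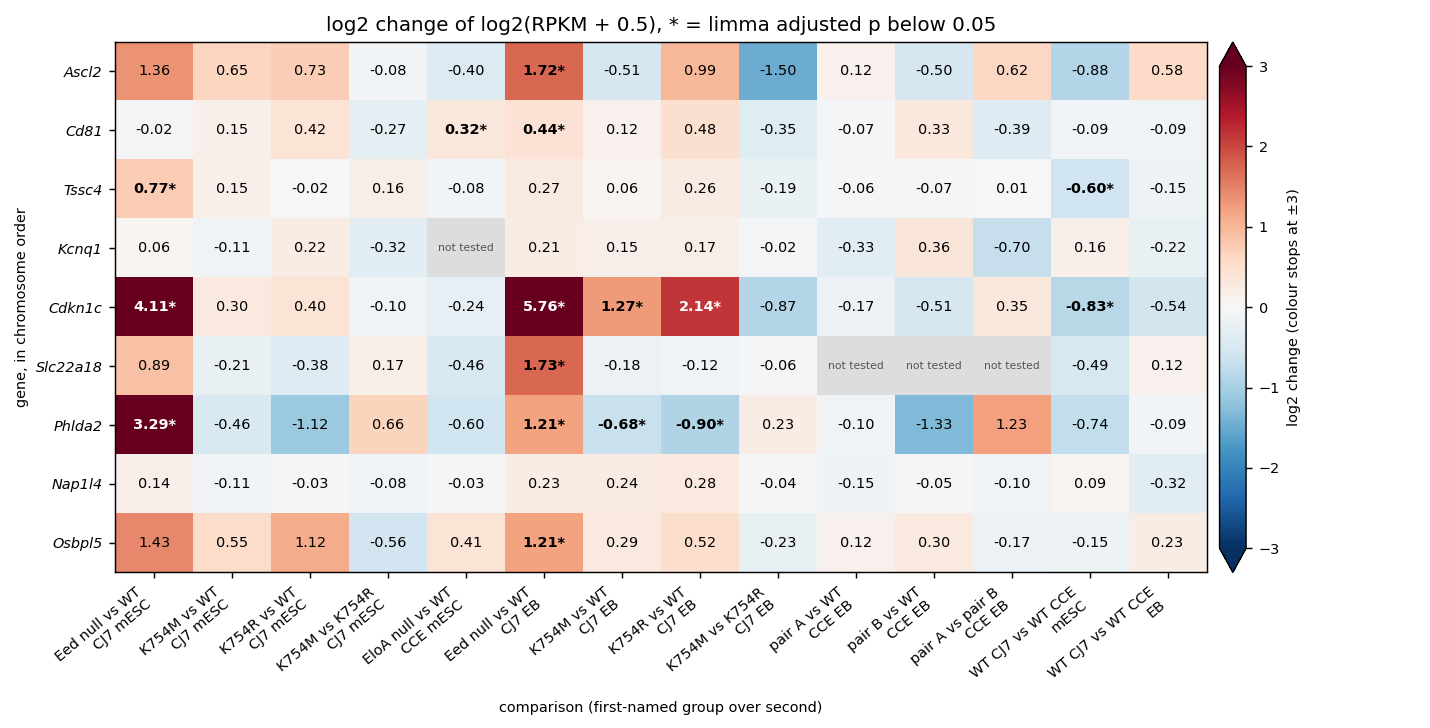
Log2 change of each gene (rows, in chromosome order) in each of 14 comparisons (columns, first-named group over second), red for higher and blue for lower, with an asterisk at limma adjusted p under 0.05 and grey where a gene was not tested. Called cells gather in the Eed null columns, and Cdkn1c and Phlda2 have opposite signs in the K754M and K754R EB columns (1.27 and -0.68, 2.14 and -0.90).

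The wild types of the 2 lines were compared with each other as well. Among mESCs, depth went with the line. In the units used above, it was 11.1 and 13.6 in the WT CJ7 libraries and 42.9 to 46.4 in the WT CCE libraries. The comparison therefore does not separate the line from depth or from other differences in how the libraries were made. The part of depth in the mESC calls was not tested. In mESCs, Cdkn1c had 0.984 and 0.533 RPKM in WT CJ7 and 1.82, 1.64 and 1.67 RPKM in WT CCE (-0.83 ± 0.20, n = 2 and 3, limma adjusted p = 0.0130). Tssc4 had 14.3 and 14.3 RPKM in WT CJ7 and 21.6, 22.2 and 21.9 RPKM in WT CCE (-0.60 ± 0.12, limma adjusted p = 0.00523). These 2 of 9 genes were lower in CJ7 and none was higher, beside 22.7% of 21780 genes (12.5% higher, 10.2% lower). The Cdkn1c call was lost without the second WT CJ7 library (-0.57, adjusted p = 0.105). In EBs limma called 0 of 9, beside 6.82% of 20039 genes (4.17% higher, 2.64% lower). At an unadjusted p under 0.05 were 3954 of all genes and 1 of 9, Nap1l4 (-0.32 ± 0.11, limma adjusted p = 0.125). Tssc4 in Eed null CJ7 mESCs (24.7 RPKM) lay above the WT CCE level, while in WT CJ7 it lay below.

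Other genes of that stretch of chromosome 7 were described from a list of 19, of which 6 lie between Ascl2 and Osbpl5 and the rest on either side. In Eed null mESCs, 2 of 14 tested rose and 1 fell, beside 5.32% of all genes higher and 3.27% lower. Their median log2 change was 0.17, against 0.05 over all genes. H19, the non-coding RNA of the adjoining imprinted domain, rose by 3.83 ± 0.40 (limma adjusted p = 0.00413), with 157 to 176 RPKM in Eed null and 10.3 to 12.2 RPKM in WT CJ7. Cars, between Nap1l4 and Osbpl5, fell (-0.72 ± 0.13), and Tnnt3, a muscle troponin gene, rose (1.49 ± 0.28). In Eed null EBs 3 of 10 rose and 2 fell: the growth factor gene Igf2 (1.81 ± 0.13), H19 (1.54 ± 0.21) and Ctsd, a lysosomal protease gene (1.44 ± 0.16) were higher and Lsp1, a leukocyte gene, was lower (-0.89 ± 0.25). Over all genes, 19.2% were higher and 11.2% lower in Eed null EBs. The median of the list was 0.03, against 0.05 over all genes.

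Igf2 differed between the substitution lines. In K754R EBs it had 59.5 to 65.6 RPKM, against 9.03 to 11.3 RPKM in WT CJ7 EBs (2.57 ± 0.13, limma adjusted p = 0.000468), and K754M, at 11.7 to 12.7 RPKM, was lower than K754R (-2.31 ± 0.13, adjusted p = 0.00101). Pair A of the CCE EBs, at 20.3 to 24.2 RPKM, was lower than pair B, at 54.9 to 70.6 RPKM (-1.47 ± 0.16, adjusted p = 0.0487). K754R and pair B were also the groups with the lowest Phlda2 among EBs. In K754M EBs, where Phlda2 was also called lower than in WT CJ7, Igf2 stood at 11.7 to 12.7 RPKM, against 9.03 to 11.3 RPKM. A relation between Igf2 and Phlda2 was not tested. In WT CJ7 EBs, 4 of 12 tested genes of the list were lower than in WT CCE EBs and 0 higher, beside 2.64% and 4.17% of all genes. Among the 4 were Igf2 (-1.35 ± 0.15) and H19 (-1.56 ± 0.23), while no gene of the domain itself was called.

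Among 21 genes of the silencing machinery, 8 rose and 1 fell in Eed null EBs, beside 19.2% of all genes higher and 11.2% lower. Their median was 0.23, against 0.05 over all genes. Dnmt3l, a cofactor of de novo DNA methylation, had 75.6 to 88.0 RPKM in Eed null EBs, against 1.45 to 1.56 RPKM in WT CJ7 EBs (5.36 ± 0.16). Zfp57, which maintains methylation at imprinting control regions, rose by 1.93 ± 0.18 and the de novo methyltransferase gene Dnmt3a by 1.36 ± 0.22, and Eed was the gene that fell. In Eed null mESCs 1 of 21 rose, Dnmt3l (1.22 ± 0.16), and 2 fell, Eed and Ctcf, beside 5.32% of all genes higher and 3.27% lower. Suz12, which encodes a PRC2 subunit, fell in K754R EBs (-1.05 ± 0.23, limma adjusted p = 0.0345), as did Eed (-0.42 ± 0.10), and Suz12 fell in EloA null mESCs (-0.34 ± 0.04, adjusted p = 0.00972).

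Of 15 genes of Cdk inhibitors and their partners, 6 rose and 2 fell in Eed null EBs, beside 19.2% of all genes higher and 11.2% lower. Their median was 0.29, against 0.05 over all genes. The 4 largest called changes were rises, of the inhibitors Cdkn2c (1.80 ± 0.29), Cdkn2b (1.69 ± 0.32) and Cdkn2a (1.05 ± 0.13) and the cyclin Ccne1 (1.46 ± 0.17). In Eed null mESCs 0 rose and Cdk6 fell (-1.09 ± 0.21), beside 5.32% of all genes higher and 3.27% lower. In K754R EBs Cdkn2a (0.89 ± 0.13) and Cdk4 (0.57 ± 0.14) rose.

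The genes whose pattern was most like that of Cdkn1c were ranked by Pearson correlation of log2(RPKM + 0.5) group means over the 13 groups, among 17778 genes that reached 1 RPKM in a group. The first 5 were Ctr9 (r = 0.97), which encodes a subunit of the Paf1 elongation complex and also lies on chromosome 7, Bahd1 (0.95), Frmpd1 (0.95), Tmem150a (0.94) and Hsph1 (0.94), a heat shock protein gene. Within the domain, Osbpl5 came nearest (0.78, rank 291), then Ascl2 (0.75), Phlda2 (0.74), Tssc4 (0.56), Slc22a18 (0.54), Nap1l4 (0.22) and Cd81 (-0.29), with Kcnq1 below the level cut. The groups share lines and tables, so r is a description. Ctr9 ranged over the groups from 21.5 RPKM in WT CJ7 mESCs to 51.9 RPKM in Eed null EBs, a far narrower span than that of Cdkn1c.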

How the data were processed

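RNA-seq of rRNA-depleted total RNA was available for 28 libraries in 13 groups. The authors deposited RPKM per gene and library, in 1 table per stage. CASAVA 1.7, STAR and the mm9 genome are named, per the submitters' processing notes; the counting program, its annotation and whether it used strand: not given in the sources used here. Values were tested as log2(RPKM + 0.5) with limma-trend (limma 3.58.1, R 4.3.3; Python 3.11.15, pandas 2.3.3, numpy 2.4.6, matplotlib 3.10.9), 1 fit per stage and line, or all 14 libraries of a stage for the wild types and 16 CJ7 libraries for the interaction. A gene entered a fit where at least 2 libraries had 0.25 RPKM. Benjamini-Hochberg adjustment ran over all genes of a comparison, with calls at 0.05, and every adjusted p in the text is limma's. Intervals are 95%.

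The program was tested on simulated data. The 10 genes, the lists and the markers were chosen with earlier results of these data known; every gene of the domain is named, and of each list up to 4 called genes with the largest change per comparison. GENCODE M21 (GRCm38) gave gene order and exon overlaps, and RefSeq the promoters. Besides the overlaps named with the results, 625 exonic bases of Cdkn1c overlap Gm44732 and 104 of Cd81 overlap R74862, each on the other strand, so those reads cannot be assigned. Depth and reads are estimates from the smallest steps of low values, and intervals cover no other error. No 2 columns were identical, and replicates differed by at least 1.90 times sampling noise. In CCE mESCs, deviations from the group mean of same-numbered EloA null and wild type libraries correlated at 0.63, 0.31 and 0.34, so the numbers were taken to pair them. The main fits nevertheless had no replicate block, and for CCE mESCs the counts with the block are given as well. Lists of 19 neighbours, 21 silencing genes and 15 Cdk inhibitors and partners are described by counts and medians. Alternatives were pseudocounts of 0.1 and 1, no filter, centring on library medians, a replicate block, all libraries of a stage in 1 fit, and leaving out each library.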

Additional observations from a re-analysis of the deposited data

Results flagged for a closer look

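The Eed null change differed between the stages for Cdkn1c and Phlda2, by a test of the difference itself in the limma fit of 16 CJ7 libraries. For Cdkn1c the change in EBs minus that in mESCs was 1.65 on the log2 scale (adjusted p = 0.00369), and for Phlda2 it was -2.08 (adjusted p = 3.16e-05). With other pseudocounts and settings it was 1.33 to 1.87 for Cdkn1c and -2.27 to -1.88 for Phlda2. Phlda2 was higher in WT CJ7 EBs, at 23.9 and 25.8 RPKM, than in WT CJ7 mESCs, at 2.51 and 2.04 RPKM, while Cdkn1c stood at 2.37 and 1.99 RPKM in the EBs and at 0.984 and 0.533 RPKM in the mESCs. Stem cell markers summed to 1788 to 2319 RPKM in Eed null EBs, against 155 to 199 RPKM in WT CJ7 EBs, and their part in either difference was not tested. No group of these genes had 4 to 10 libraries, so single libraries were not screened.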

How the results depend on the processing

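The 18 called changes of genes in the domain were refitted under the alternatives, 274 refits in all. Of these refits 226 kept the call and 48 lost it, with 0 changes of sign. Of 1649 refits of uncalled changes, 48 had another sign. Counts of called genes that moved by over 1.5 times were 5 in Eed null mESCs with all 14 libraries in 1 fit, against 3; in EloA null mESCs 0 without the filter, 2 with the replicate block and 0 with all 14 libraries, against 1; in K754M EBs 0 with a pseudocount of 1, 1 without the filter, 0 with centring and 1 with all 14 libraries, against 2; and, against 0 each, 1 in K754M over K754R EBs with the block, 1 in pair B over WT CCE with the block and with all 14 libraries, 2 in pair A over pair B with the block and with all 14 libraries, and 1 in WT CJ7 over WT CCE EBs with the block. The block called Phlda2 in pair B (adjusted p = 0.0239) and Phlda2 and Cd81 in pair A over pair B (0.0236 and 0.0345). Leaving out 1 library gave 2 to 4 called genes in Eed null mESCs, 4 to 5 in Eed null EBs, 0 to 1 in EloA null mESCs, 0 to 2 in K754M EBs, 1 to 3 in K754R EBs, 0 to 1 in K754M over K754R EBs, 1 to 3 in WT CJ7 over WT CCE mESCs and 2 in each interaction fit. The cause was not tested. Outside CCE mESCs numbers do not pair the libraries by the labels, with 2 per group; deviations correlated at 0.05 to 0.46 in CJ7 mESCs, 0.03 to 0.35 in CJ7 EBs and 0.28 to 0.55 in CCE EBs. Counts over all genes moved by over 1.5 times as follows. With the block they were 2288 against 619 in EloA null mESCs, 2 against 34 in K754R mESCs, 0 against 2 in K754M over K754R mESCs, 230 against 109 in K754M EBs, 2950 against 1868 in K754R EBs, 1099 against 698 in K754M over K754R EBs, 703 against 24 in pair B, 1462 against 78 in pair A over pair B and 2109 against 1366 in WT CJ7 over WT CCE EBs. With all 14 libraries they were 5211 against 1805 in Eed null mESCs, 955 against 0 in K754M mESCs, 1747 in K754R mESCs, 841 in K754M over K754R mESCs, 296 in EloA null mESCs, 434 in K754M EBs, 1358 in K754M over K754R EBs, 591 in pair B and 794 in pair A over pair B. Without the filter they were 111 in K754M mESCs, 96 in K754R mESCs, 73 in K754M over K754R mESCs, 331 in EloA null mESCs, 838 in K754R EBs, 344 in K754M over K754R EBs, 81 against 0 in pair A, 102 in pair B and 201 in pair A over pair B. With centring they were 58 in K754M EBs, 53 in pair B and 5 in pair A over pair B, and the higher share of the calls was 58.5% against 79.2% in pair B. A pseudocount of 0.1 gave 1 in pair A over pair B and 1 in K754M mESCs, and a pseudocount of 1 gave 0 in K754M over K754R mESCs. Leaving out 1 library moved the all-gene counts further: in Eed null mESCs, leaving out an Eed null library gave 179 and 185 genes and leaving out a WT library 323 and 417; counts went to 0 in each fit of K754R and of K754M over K754R mESCs; to 158 to 370 in EloA null mESCs without any 1 library but WT library 1; to 0 without either K754M library or WT library 2, 17 without WT library 1, 8 without either K754R library and 209 without either Eed null library in K754M EBs; to 177 and 214 without K754R library 1 or 2, 264 without WT library 2 and 952 and 962 without K754M library 1 or 2 in K754R EBs; to 21 to 64 without any 1 library of either line in K754M over K754R EBs; and to 0 to 1 in each fit of pair B and of pair A over pair B. It gave 567 to 768 without any 1 wild type library in WT CJ7 over WT CCE EBs, 2867 against 4934 in mESCs without WT CJ7 library 1, and 1729 to 2186 against 3346 in the interaction without either Eed null mESC or either WT EB library. Where a library is left out, its partner is assumed to vary like the other groups. Counts of 1 to 169 estimated reads limit Slc22a18 most.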
